A study of Mus musculus with 15 samples.

Results

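The livers of mice given myricetin on a high-fat diet were set against those of control mice, to ask what still differed from normal liver under treatment. Myricetin is a plant flavonol, and the study concerned flavonoids of Rosa roxburghii, a rose grown for its fruit. Liver transcripts were measured by RNA sequencing in 15 libraries, 3 in each of 5 groups. The 6 libraries compared here, 3 from myricetin and 3 from control livers, were chosen by their group labels, with no measured value used. Myricetin mice received myricetin by oral gavage at 75 mg/kg/day while on a high-fat diet, which lasted 6 weeks. Control mice ate standard feed over the same 6 weeks. All groups are labelled as wild type. The label of the myricetin group does not give the make-up of its diet. The label of the untreated high-fat group, the model, gives lard and egg yolk powder at 10% each, sodium cholate at 0.2% and cholesterol at 1%, the rest being standard feed (78.8%). Diet and compound both differ between myricetin and control livers, so their effects cannot be told apart in this comparison. Sex, strain, age, hour of collection and fasting are not stated in the labels, nor is any gavage of the control mice. Whether each library stands for its own mouse is not stated either, so the p-values describe the spread among libraries, which may be technical.

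Hepatocytes make cholesterol and fatty acids with enzymes whose genes are switched on by the SREBP transcription factors, which respond to low sterol and to insulin. A liver loaded with dietary cholesterol keeps SREBP2 in the endoplasmic reticulum, while oxysterols activate the nuclear receptor LXR, which raises the genes of sterol export. The liver also holds Kupffer cells, its resident macrophages, and a fenestrated sinusoidal endothelium, and it runs a circadian clock that feeding can shift.

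Library totals were 15.9 to 17.6 M expected counts in myricetin livers and 16.0 to 16.6 M in control livers, with 14615 to 14832 genes detected. Values are given as CPM, counts scaled to the TMM-adjusted library total, in the order of replicates 5, 7 and 8 for myricetin and 1, 2 and 3 for control. Differences are log2 fold changes, myricetin over control, with their standard errors. Passing means an adjusted p under 0.05 from the quasi-likelihood test of edgeR, adjusted by Benjamini-Hochberg over 12658 genes. On the first principal component of the 6 libraries (47.8% of the variance), myricetin libraries lay at 27.4, 23.0 and 28.4, against -12.0, -33.4 and -33.3 for control libraries, so control replicate 1 stood apart from the other controls. The 20 hepatocyte markers tested summed to 73040, 68874 and 83385 CPM in myricetin livers, against 115694, 115905 and 103266 CPM in control livers. Most of this sum was Alb alone, with 47774.6, 44351 and 52889 CPM in myricetin livers, against 82219.5, 80834.3 and 72243.5 CPM in control livers. The sum is therefore weighted mainly by Alb. Of the 20 markers, 19 had a negative log2 fold change, with a median of -0.33, beside 6323 of all 12658 genes negative. The 27 macrophage markers tested summed to 673.5 to 902.9 CPM in myricetin livers and 399 to 502 CPM in control livers, and the 18 endothelial markers summed to 496 to 609 CPM in myricetin livers and 249 to 372 CPM in control livers. No marker of these 3 lists that was tested stood at 0 in all 6 libraries, and the part of the marker shifts in the gene results was not tested. In bulk liver, fewer cells of a type and less RNA per cell cannot be told apart.

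In all, 1164 of 12658 genes passed (9.2%), 578 higher (4.57%) and 586 lower (4.63%) in myricetin livers. The median size of a passing log2 fold change was 0.74, and 359 of the passing genes differed by more than 2-fold. The median over all genes tested was 0.000551. CPM of the 3 myricetin and 3 control libraries did not overlap in 3763 genes (29.7%). Leaving out myricetin replicates 5, 7 and 8 in turn gave 618, 762 and 823 passing genes, and leaving out control replicates 1, 2 and 3 gave 1354, 470 and 512.

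**Figure D1:**
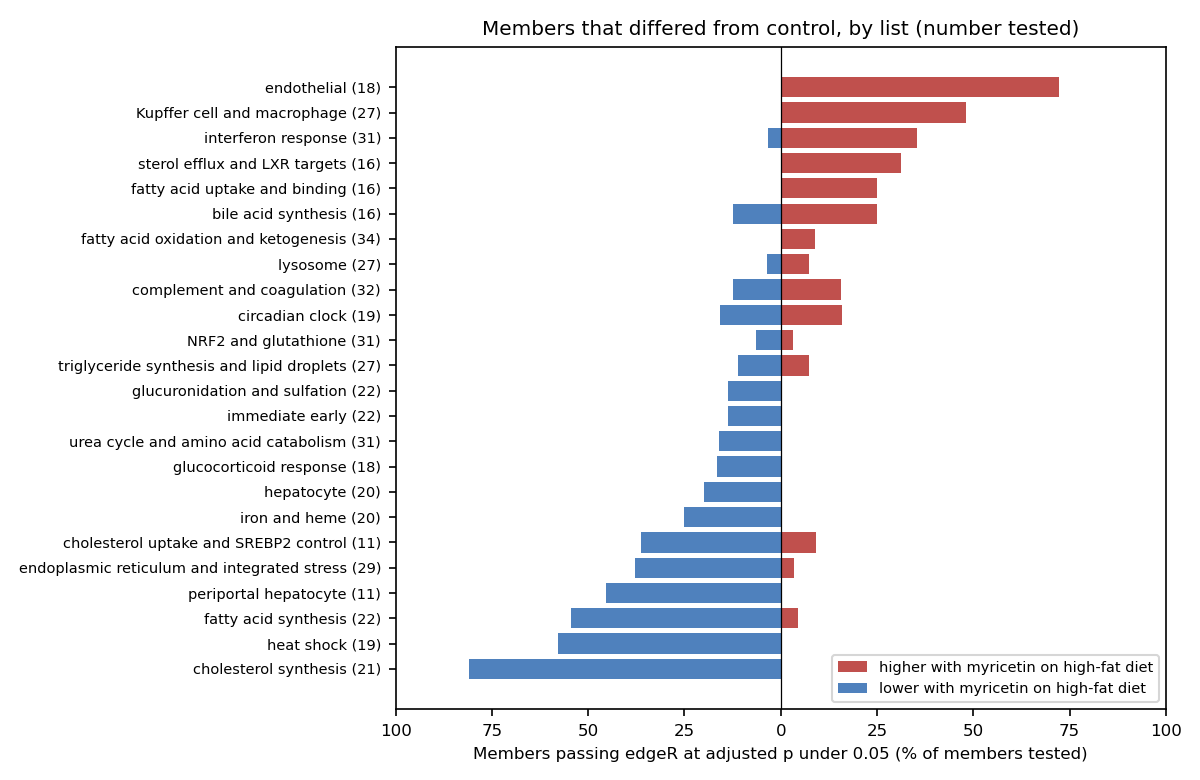
Share of the tested members of each gene list that passed edgeR at an adjusted p under 0.05, in percent, drawn to the right for members higher and to the left for members lower in myricetin livers, with the number of members tested in parentheses. Only lists with several passing members are drawn. Cholesterol synthesis had the highest share of lower members (17 of 21) and the endothelial list the highest share of higher members (13 of 18) among the lists drawn, beside 4.63% and 4.57% of all genes.

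Cholesterol synthesis was lower in myricetin livers along most of the pathway. Of 21 enzymes tested, 17 fell and none rose, beside 4.63% of all genes lower, and the median log2 fold change was -1.34. The lower genes ran from Acat2 and Hmgcs1, which build the first intermediates, through the mevalonate and isoprenoid steps to the late sterol reductases. Leaving out 1 library at a time gave 10 to 17 lower members, with 10 without control replicate 3 and 11 without myricetin replicate 7.

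Sqle, squalene epoxidase, makes the first oxygenated step towards the sterol ring (GRCm38.p6 chromosome 15, 59315092 to 59331193). It stood at 2.80, 2.29 and 0.689 CPM in myricetin livers, against 50.6, 27.3 and 65.7 CPM in control livers. Every myricetin library lay below every control library, and the log2 fold change was -4.63 ± 0.75 (SE, edgeR adjusted p = 0.0055). Fdps, which makes farnesyl diphosphate (GRCm38.p6 chromosome 3, 89093588 to 89101967), had 33.1, 22.0 and 32.1 CPM in myricetin livers, against 230.0, 101 and 224 CPM in control livers. Its difference was -2.67 ± 0.42 (edgeR adjusted p = 0.00429), and control replicate 2 was the lowest control, as it was for Sqle. Mvd, the decarboxylase that makes isopentenyl diphosphate, had 2.06, 3.08 and 3.79 CPM in myricetin livers, against 10.0, 17.6 and 42.2 CPM in control livers, with a difference of -2.97 ± 0.58 (edgeR adjusted p = 0.0109).

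Other enzymes around and after squalene epoxidation fell as well. Tm7sf2, a sterol reductase (GRCm38.p6 chromosome 19, 6062821 to 6067850), had 48.5, 52.2 and 56.3 CPM in myricetin livers, against 147, 118 and 137 CPM in control livers. No libraries of the 2 groups overlapped, and its log2 fold change was -1.35 ± 0.16 (edgeR adjusted p = 0.000512). Lss, which closes the sterol rings, differed by -1.69 ± 0.23 (edgeR adjusted p = 0.00155), and Cyp51, the lanosterol demethylase, by -1.94 ± 0.27 (edgeR adjusted p = 0.00204). Fdft1, squalene synthase, differed by -1.06 ± 0.18 (edgeR adjusted p = 0.00414), and Nsdhl, a sterol dehydrogenase, by -1.88 ± 0.39 (edgeR adjusted p = 0.0136). These genes, with Sqle, Fdps and Mvd, passed whichever of the 6 libraries was left out.

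Several other lower enzymes depended on single libraries. Idi1, the isopentenyl diphosphate isomerase, differed by -2.09 ± 0.50 and had an edgeR adjusted p as high as 0.0869 without control replicate 3. Hmgcs1, HMG-CoA synthase, differed by -1.11 ± 0.29, with up to 0.112 without control replicate 3, and Dhcr7 by -1.35 ± 0.36, with up to 0.112 without myricetin replicate 8. Mvk (-0.65 ± 0.30 (edgeR adjusted p = 0.185)), Ggps1 (-0.04 ± 0.17 (edgeR adjusted p = 0.895)), Ebp (-0.43 ± 0.13 (edgeR adjusted p = 0.0501)) and Sc5d (-0.45 ± 0.17 (edgeR adjusted p = 0.11)) did not pass. On the length-scaled measure, TPM, Fdps averaged 35.3 ± 7.08 TPM in myricetin livers and 219 ± 92.6 TPM in control livers (SD, n = 3 each). On the same scale the level of Sqle was 0.983 ± 0.581 TPM in myricetin livers and 23.4 ± 10.4 TPM in control livers, and that of Sc5d 149.8 ± 7.67 TPM in myricetin livers and 195 ± 51.0 TPM in control livers.

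**Figure D2:**
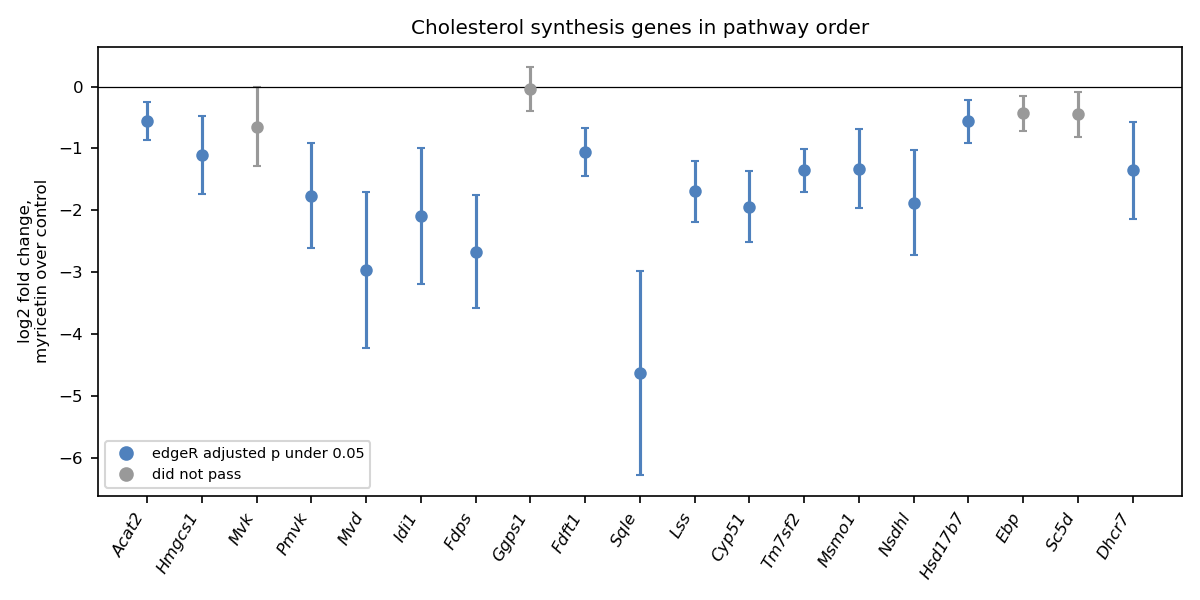
Log2 fold change, myricetin over control, of 19 of the 21 cholesterol synthesis genes tested, in the order of the pathway, with 95% intervals from edgeR (points; blue, adjusted p under 0.05; grey, did not pass). All points lie below 0, from Ggps1 at -0.04 to Sqle at -4.63.

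Genes of cholesterol uptake and SREBP2 control changed in both directions. Srebf2, which encodes SREBP2 itself, had 37.7, 30.6 and 29.9 CPM in myricetin livers, against 52.2, 49.9 and 62.9 CPM in control livers, a difference of -0.75 ± 0.12 (edgeR adjusted p = 0.00215). The libraries of the groups were separate. Mylip, the ubiquitin ligase that degrades lipoprotein receptors and an LXR target, had 7.55, 8.74 and 10.4 CPM in myricetin livers, against 5.45, 4.32 and 3.60 CPM in control livers, and rose by 1.00 ± 0.21 (edgeR adjusted p = 0.00937). Insig1, which anchors SREBP in the endoplasmic reticulum and is itself an SREBP target, differed by -1.14 ± 0.31, with an edgeR adjusted p of 0.0405 that reached 0.135 without control replicate 3. Of 11 genes of cholesterol uptake and SREBP2 control tested, 1 rose and 4 fell, beside 4.57% of all genes higher and 4.63% lower, with a median of 0.04. The 4 were 2 without control replicate 3 or any of the myricetin replicates 5, 7 and 8.

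Sterol export genes were higher. Of 16 sterol efflux genes and LXR targets tested, 5 rose and none fell, beside 4.57% of all genes higher, with a median of 0.17, and leaving out any of the 6 libraries gave 5 or 6. Abcg5 and Abcg8 encode the subunits of the transporter that secretes cholesterol into bile. Abcg5 (GRCm38.p6 chromosome 17, 84658174 to 84683011) had 155, 216 and 173 CPM in myricetin livers, against 47.0, 56.8 and 46.0 CPM in control livers, a difference of 1.86 ± 0.35 (SE, edgeR adjusted p = 0.00871). Abcg8, its neighbour on the chromosome (GRCm38.p6 chromosome 17, 84676302 to 84700333), had 178, 209.9 and 182 CPM in myricetin livers, against 48.5, 46.8 and 45.4 CPM in control livers, a difference of 2.02 ± 0.31 (edgeR adjusted p = 0.00341). In both genes the lowest myricetin library was above the highest control library by more than the whole range of the controls. The genes overlap by 6710 bases on opposite strands, and the use of strand in counting is not stated, so reads from the shared stretch cannot be told apart.

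Abca1, which loads cholesterol onto high-density lipoprotein, had 179.8, 155 and 136 CPM in myricetin livers, against 107, 109.5 and 102 CPM in control livers, and rose by 0.56 ± 0.11 (edgeR adjusted p = 0.00729). Npc1, which moves cholesterol out of lysosomes, differed by 0.57 ± 0.11 (edgeR adjusted p = 0.00708), and Soat2, which esterifies cholesterol for storage and secretion, by 0.57 ± 0.12 (edgeR adjusted p = 0.0101). The level of Soat2 was 25.7 ± 2.71 TPM in myricetin livers and 16.7 ± 2.01 TPM in control livers (SD, n = 3 each). Lpcat3, a phospholipid remodelling enzyme in the same list, differed by 0.11 ± 0.18 (edgeR adjusted p = 0.722) and did not pass.

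Genes of fatty acid synthesis were mostly lower, although Srebf1 was higher. Srebf1 encodes SREBP1, the activator of this pathway and an LXR target (GRCm38.p6 chromosome 11, 60199084 to 60224186). It had 371, 288 and 311 CPM in myricetin livers, against 128, 155 and 211 CPM in control livers, a difference of 0.97 ± 0.17 (SE, edgeR adjusted p = 0.00346), and passed without any of the 6 libraries. Of 22 genes tested, Srebf1 was the only member that rose and 12 fell, beside 4.63% of all genes lower, with a median of -1.02. The 12 depended on the libraries, with 6 without control replicate 1, 2 without control replicate 3, 4 without myricetin replicate 5, 2 without myricetin replicate 7 and 5 without myricetin replicate 8.

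Fads1, a desaturase of polyunsaturated fatty acids, had 179.5, 176 and 194 CPM in myricetin livers, against 499, 350.1 and 425 CPM in control livers. Its difference was -1.21 ± 0.24 (edgeR adjusted p = 0.00957), and Tecr, the last enzyme of the elongation cycle, differed by -0.49 ± 0.10 (edgeR adjusted p = 0.00809). Both passed without each library in turn. Fasn, fatty acid synthase, had 213, 168 and 168 CPM in myricetin livers, against 305, 407 and 851 CPM in control livers. The groups did not overlap, but control replicate 3 stood well above the other controls, and the difference of -1.51 ± 0.38 (edgeR adjusted p = 0.0318) reached an adjusted p of 0.0935 without control replicate 3. Elovl6, an elongase, differed by -0.96 ± 0.23 (up to 0.0696 without myricetin replicate 8), and Slc25a1, the citrate carrier, by -0.40 ± 0.10 (up to 0.097 without control replicate 3).

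Further lower members were Acly (-1.08), which makes cytosolic acetyl-CoA, Me1 (-1.18), which supplies NADPH, Pklr (-1.17), the liver pyruvate kinase, and Thrsp (-1.58), a lipogenic nuclear protein, with edgeR adjusted p-values of 0.0306, 0.0359, 0.0271 and 0.0288. Each of these missed the threshold without at least 1 library. Scd1, the stearoyl-CoA desaturase, had 4206, 3452 and 3747 CPM in myricetin livers, against 7337, 3150.3 and 4305 CPM in control livers. Its groups overlapped, and the difference of -0.38 ± 0.35 (edgeR adjusted p = 0.534) did not pass. Acaca and Acacb, the acetyl-CoA carboxylases, differed by -0.52 ± 0.18 (edgeR adjusted p = 0.0753) and -1.97 ± 0.61 (edgeR adjusted p = 0.0697).

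**Figure D3:**
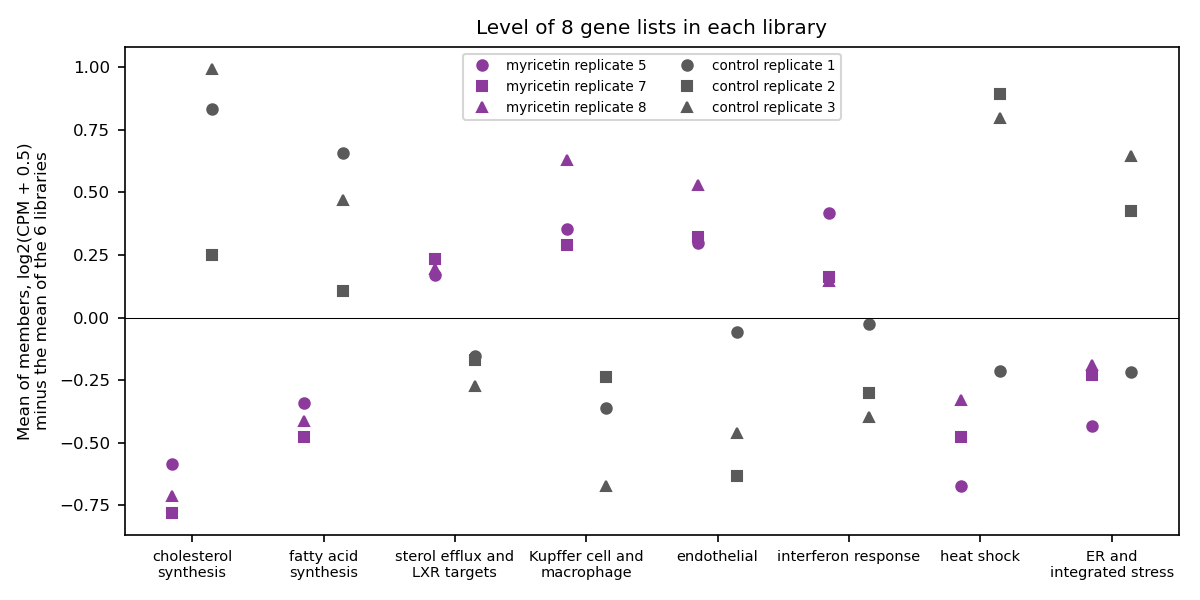
Mean over the members of 8 lists of log2(CPM + 0.5), each gene centred on its mean over the 6 libraries (purple, myricetin; grey, control; the shape marks the replicate). Control replicate 1 lay at -0.21 for heat shock and -0.22 for ER and integrated stress, where the other controls lay at 0.89 and 0.80, and 0.42 and 0.65.

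Lipid storage and fatty acid use changed in few genes. Of 27 genes of triglyceride synthesis and lipid droplets, 2 rose and 3 fell, beside 4.57% of all genes higher and 4.63% lower, with a median of 0.11. Pparg, the receptor that drives fat storage, had 9.55, 7.78 and 11.3 CPM in myricetin livers, against 4.50, 3.80 and 3.35 CPM in control livers, and rose by 1.30 ± 0.22 (edgeR adjusted p = 0.00325). Plin5, a droplet coat protein of oxidative tissues, had 32.4, 36.5 and 47.7 CPM in myricetin livers, against 71.4, 88.7 and 69.8 CPM in control livers, a difference of -0.98 ± 0.17 (edgeR adjusted p = 0.00339). Both held without each library in turn. Cidec, a droplet fusion protein, stood at 0.801, 0.241 and 0.689 CPM in myricetin livers, against 0.254, 0.129 and 0.497 CPM in control livers. These low values overlapped, and the difference of 0.96 ± 0.71 (edgeR adjusted p = 0.412) did not pass.

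Of 16 fatty acid uptake and binding genes, 4 rose, beside 4.57% of all genes higher. The 4 were 2 without control replicate 1, and 1 without control replicate 2, control replicate 3, myricetin replicate 7 or myricetin replicate 8. Fabp2, a fatty acid binding protein, had 65.4, 67.8 and 79.3 CPM in myricetin livers, against 39.9, 41.0 and 37.0 CPM in control livers, a difference of 0.85 ± 0.17 (edgeR adjusted p = 0.00871) that held without each library. Cd36, the fatty acid translocase, had 17.6, 17.4 and 23.8 CPM in myricetin livers, against 13.2, 4.83 and 9.13 CPM in control livers. Its groups did not overlap, yet the difference of 1.12 ± 0.46 (edgeR adjusted p = 0.152) did not pass. Of 34 genes of fatty acid oxidation and ketogenesis, 3 rose and none fell, beside 4.57% of all genes higher and 4.63% lower. Leaving out 1 library at a time gave 2 to 7 higher members, with 7 without myricetin replicate 5, and 1 fell without myricetin replicate 7. Vnn1, the pantetheinase of the PPAR alpha response, had 31.5, 50.2 and 49.1 CPM in myricetin livers, against 8.43, 15.7 and 14.7 CPM in control livers, a difference of 1.75 ± 0.37 (edgeR adjusted p = 0.0159), and the ketone enzyme Bdh1 differed by 0.43 ± 0.10 (edgeR adjusted p = 0.0116). Cpt1a, which admits fatty acids to mitochondria, differed by 0.25 ± 0.12 (edgeR adjusted p = 0.188), and Ppara by 0.02 ± 0.12 (edgeR adjusted p = 0.924), and neither passed.

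Bile acid synthesis, by which the liver disposes of cholesterol, showed members in both directions. Of 16 genes, 4 rose and 2 fell, beside 4.57% of all genes higher and 4.63% lower. Cyp7a1, the rate-limiting enzyme of the classic pathway, had 59.4, 47.0 and 109.6 CPM in myricetin livers, against 140.3, 27.0 and 24.9 CPM in control livers. The groups overlapped widely, and the difference was 0.17 ± 0.62 (edgeR adjusted p = 0.89). Cyp8b1, which sets the share of cholic acid, had 399, 329.9 and 344 CPM in myricetin livers, against 611, 449 and 415 CPM in control livers, a difference of -0.46 ± 0.22 (edgeR adjusted p = 0.21) that did not pass. Akr1d1, a steroid reductase of bile acid synthesis, had 93.1, 84.3 and 97.9 CPM in myricetin livers, against 191, 148 and 127 CPM in control livers, a difference of -0.76 ± 0.15 (edgeR adjusted p = 0.00567) that held without each library. Hsd3b7, an early enzyme of the pathway, rose by 0.72 ± 0.15 (edgeR adjusted p = 0.00911), with up to 0.0506 without control replicate 2. The count of 4 was 0 without control replicate 2, 1 without control replicate 3 or myricetin replicate 8, and 2 without myricetin replicate 5. Of 14 genes of bile acid transport only Abcc2, the canalicular export pump for conjugated anions, passed, at 0.53 ± 0.15, and it reached 0.142 without myricetin replicate 7.

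In lipoprotein genes, 1 of 24 rose and 1 fell, beside 4.57% of all genes higher and 4.63% lower. Sort1, a sorting receptor for apolipoprotein B particles, had 54.5, 39.6 and 34.8 CPM in myricetin livers, against 19.7, 13.9 and 19.1 CPM in control livers, and its difference of 1.29 ± 0.17 (edgeR adjusted p = 0.00095) held without each library. Apoa4, an apolipoprotein, differed by -0.96 ± 0.27 and reached 0.137 without control replicate 3.

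Clock genes differed strongly in a few members. The clock is a loop in which BMAL1, encoded by Arntl, and CLOCK drive the Per and Cry repressors and the Nr1d nuclear receptors, which repress Arntl in turn. Of 19 genes tested 3 rose and 3 fell, beside 4.57% of all genes higher and 4.63% lower, with a median of -0.21. Leaving out any of the 6 libraries gave 3 higher and 3 or 4 lower. The time of day at which livers were taken is not in the labels, and its part in these values was not tested.

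Nr1d1, which encodes REV-ERB alpha (GRCm38.p6 chromosome 11, 98767932 to 98775377), had 73.3, 134 and 84.1 CPM in myricetin livers, against 1.46, 5.02 and 2.61 CPM in control livers. Its lowest myricetin library was above its highest control library by more than an order of magnitude, and the log2 fold change was 5.00 ± 0.43 (SE, edgeR adjusted p = 0.000415), with a 95% interval of 4.06 to 5.94. Thra, which overlaps the end of Nr1d1 on the opposite strand, averaged 16.0 CPM in myricetin livers and 16.4 CPM in control livers. Nr1d2, its paralog, had 39.8, 75.2 and 51.2 CPM in myricetin livers, against 9.70, 14.6 and 6.27 CPM in control livers, a difference of 2.44 ± 0.30 (edgeR adjusted p = 0.00117). Dbp, a transcription factor of clock output, had 5.55, 19.8 and 25.2 CPM in myricetin livers, against 2.66, 2.83 and 1.80 CPM in control livers. Myricetin replicate 5 was the lowest of its group and still above the controls, and the difference was 2.79 ± 0.46 (edgeR adjusted p = 0.00534). Sphk2, which overlaps Dbp by 741 bases on the opposite strand, averaged 63.0 CPM in myricetin livers and 46.1 CPM in control livers. It passed as well, at 0.45 (edgeR adjusted p = 0.011), and reads from the stretch shared with Dbp cannot be told apart.

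Cry1 and Per2, which encode repressors of the loop, were among the lower members. Cry1 had 17.8, 13.4 and 10.2 CPM in myricetin livers, against 47.7, 48.5 and 44.5 CPM in control livers, a difference of -1.76 ± 0.22 (edgeR adjusted p = 0.000778), and Per2 had 9.84, 10.6 and 10.5 CPM in myricetin livers, against 43.7, 113 and 93.0 CPM in control livers, a difference of -3.02 ± 0.47 (edgeR adjusted p = 0.00435). The groups were separate for both genes. Arntl had 23.2, 16.3 and 12.9 CPM in myricetin livers, against 30.7, 22.1 and 26.5 CPM in control livers. Its groups overlapped, and the difference of -0.60 ± 0.23 (edgeR adjusted p = 0.119) did not pass. Per1 varied within the myricetin group, with 4.29, 10.3 and 24.2 CPM in myricetin livers, against 46.1, 53.2 and 36.7 CPM in control livers, and did not pass either (edgeR adjusted p = 0.143).

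**Figure D4:**
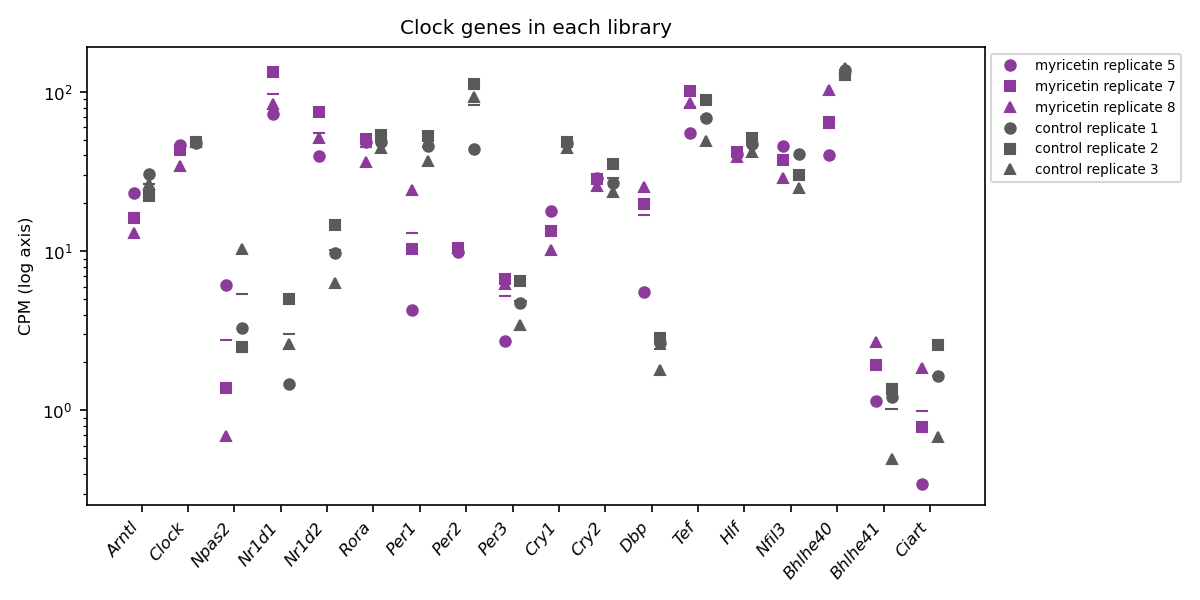
CPM of 18 of the 19 clock genes in each library on a log axis (purple, myricetin; grey, control; shapes mark replicates; short lines are group means). Nr1d1, Nr1d2 and Dbp lie higher and Cry1 and Per2 lower in all 3 myricetin libraries than in all 3 control libraries.

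Of 18 genes of the glucocorticoid response 3 fell and none rose, beside 4.63% of all genes lower, and the number stayed at 3 without any of the 6 libraries. Zbtb16, a zinc finger transcription factor induced by glucocorticoids (GRCm38.p6 chromosome 9, 48651797 to 48836225), had 12.5, 11.4 and 16.7 CPM in myricetin livers, against 77.6, 122 and 83.1 CPM in control livers, a difference of -2.80 ± 0.29 (edgeR adjusted p = 0.000512). Cdkn1a, which encodes the cell cycle inhibitor p21, had 10.1, 5.31 and 10.4 CPM in myricetin livers, against 40.5, 39.4 and 31.8 CPM in control livers, a difference of -2.11 ± 0.27 (edgeR adjusted p = 0.00117). Ddit4, an inhibitor of mTOR signalling, had 4.00, 3.92 and 4.42 CPM in myricetin livers, against 12.2, 14.8 and 14.5 CPM in control livers, a difference of -1.75 ± 0.34 (edgeR adjusted p = 0.00801). The groups were separate in all 3 genes. Fkbp5 (-1.04 ± 0.52 (edgeR adjusted p = 0.23)) and Tsc22d3 (-1.45 ± 0.56 (edgeR adjusted p = 0.127)), which are widely used markers of glucocorticoid action, did not pass.

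Chaperones and other genes of the endoplasmic reticulum (ER) stress response were lower. This response is run by the sensors ATF6, IRE1 and PERK, which raise chaperones, disulfide isomerases and the factor CHOP when unfolded protein builds up. Of 29 genes of ER and integrated stress tested, 11 fell and 1 rose, beside 4.63% of all genes lower and 4.57% higher, with a median of -0.56. The 11 were 5 without control replicate 2, 6 without control replicate 3, 7 without myricetin replicate 7, and 14 without control replicate 1. On the mean of the list's members, myricetin libraries lay at -0.43, -0.23 and -0.19, against -0.22, 0.42 and 0.65 for control libraries, so control replicate 1 lay within the myricetin range.

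A promoter element of this response, the ER stress response element (ERSE), is bound by ATF6 together with NF-Y. Its letters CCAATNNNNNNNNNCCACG were searched on both strands in the 250 bases before the start of each gene in RefSeq (GRCm38.p6). They were found in 6 of the 11 lower genes, all of which had a window, and in 7 of the 26 members of the list with a window. Over all windows the share was 0.113% (37 of 32851), and over the genes tested here 0.187% (19 of 10173 with a window). The match describes the letters, not a bound site. The windows of 4 of the lower genes are printed here to show the element and its place, with the matching letters in capitals, 5′ to 3′ on the strand of the gene. They are chr2:34771840-34772089 (+) for Hspa5, chr10:86705445-86705694 (-) for Hsp90b1, chr14:118937682-118937931 (+) for Dnajc3 and chr15:88819396-88819645 (+) for Creld2, where the letters stand on the opposite strand. In Hsp90b1 the element is present on each strand.
Hspa5: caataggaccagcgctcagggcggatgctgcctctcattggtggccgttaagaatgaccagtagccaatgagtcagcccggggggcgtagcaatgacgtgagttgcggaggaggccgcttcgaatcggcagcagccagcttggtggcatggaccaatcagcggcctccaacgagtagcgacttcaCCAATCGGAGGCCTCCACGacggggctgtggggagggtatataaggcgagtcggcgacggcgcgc
Hsp90b1: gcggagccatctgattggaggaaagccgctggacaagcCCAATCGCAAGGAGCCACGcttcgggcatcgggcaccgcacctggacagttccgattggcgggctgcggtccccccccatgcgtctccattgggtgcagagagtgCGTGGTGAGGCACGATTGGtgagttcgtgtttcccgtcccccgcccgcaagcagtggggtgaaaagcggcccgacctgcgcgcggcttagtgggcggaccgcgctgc
Dnajc3: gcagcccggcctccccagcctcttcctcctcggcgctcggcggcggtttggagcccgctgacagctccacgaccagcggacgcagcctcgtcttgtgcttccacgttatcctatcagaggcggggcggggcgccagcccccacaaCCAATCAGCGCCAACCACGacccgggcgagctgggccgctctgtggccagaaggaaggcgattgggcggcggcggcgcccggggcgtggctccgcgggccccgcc
Creld2: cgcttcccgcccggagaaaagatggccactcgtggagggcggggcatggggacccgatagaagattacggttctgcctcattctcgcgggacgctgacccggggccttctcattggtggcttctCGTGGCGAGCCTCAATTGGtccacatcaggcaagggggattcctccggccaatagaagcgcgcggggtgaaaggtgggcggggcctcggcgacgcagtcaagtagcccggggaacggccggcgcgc

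Counted back from the start of the gene, the first capital stood at base 65 in Hspa5, 105 in Dnajc3 and 126 in Creld2. Pdia6 and Calr held the other matches among the lower genes, and Derl3, which did not pass (-1.42 ± 0.85 (edgeR adjusted p = 0.321)), held the match outside them.

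Dnajc3, an ER co-chaperone that restrains PERK, had 190.4, 195 and 200.0 CPM in myricetin livers, against 248, 351 and 345 CPM in control livers, a difference of -0.69 ± 0.12 (SE, edgeR adjusted p = 0.00337). Hsp90b1, the ER chaperone GRP94, had 717, 638 and 697 CPM in myricetin livers, against 804, 1397 and 1596 CPM in control livers. Control replicate 1 was close to the myricetin values, and the difference of -0.89 ± 0.17 (edgeR adjusted p = 0.00651) held without each library. Hspa5, the ER chaperone BiP, had 556, 796 and 922 CPM in myricetin livers, against 957, 2407 and 2692 CPM in control livers. Here too control replicate 1 stood near the myricetin libraries, and the difference of -1.41 ± 0.35 (edgeR adjusted p = 0.0285) reached an adjusted p of 0.103 without control replicate 3.

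Creld2, a secreted ER stress protein, had 25.3, 47.0 and 47.9 CPM in myricetin livers, against 47.0, 220.4 and 269 CPM in control livers. Control replicate 1 lay within the myricetin range, and the difference of -2.16 ± 0.58 (edgeR adjusted p = 0.0432) reached 0.141 without control replicate 3. Pdia4, a disulfide isomerase, differed by -0.997 ± 0.20 (edgeR adjusted p = 0.00884), and Pdia6 by -0.49 ± 0.13 (edgeR adjusted p = 0.029). Calr, the lectin chaperone calreticulin, differed by -0.54 ± 0.12 (edgeR adjusted p = 0.0148). Of these, only Pdia4 passed without each library in turn.

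Ddit3, which encodes CHOP, had 6.24, 9.95 and 6.61 CPM in myricetin livers, against 17.0, 41.5 and 58.7 CPM in control livers, a difference of -2.36 ± 0.37 (edgeR adjusted p = 0.00377) that held without each library. Trib3, a pseudokinase induced by CHOP and ATF4, was the member that rose, with 6.35, 10.7 and 11.1 CPM in myricetin livers, against 2.47, 4.57 and 4.85 CPM in control livers and a difference of 1.24 ± 0.28 (edgeR adjusted p = 0.0135). Atf4 (-0.12 ± 0.10 (edgeR adjusted p = 0.48)) and Xbp1 (0.07 ± 0.12 (edgeR adjusted p = 0.762)), the transcription factors of the PERK and IRE1 arms, did not pass at the transcript level.

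**Figure D5:**
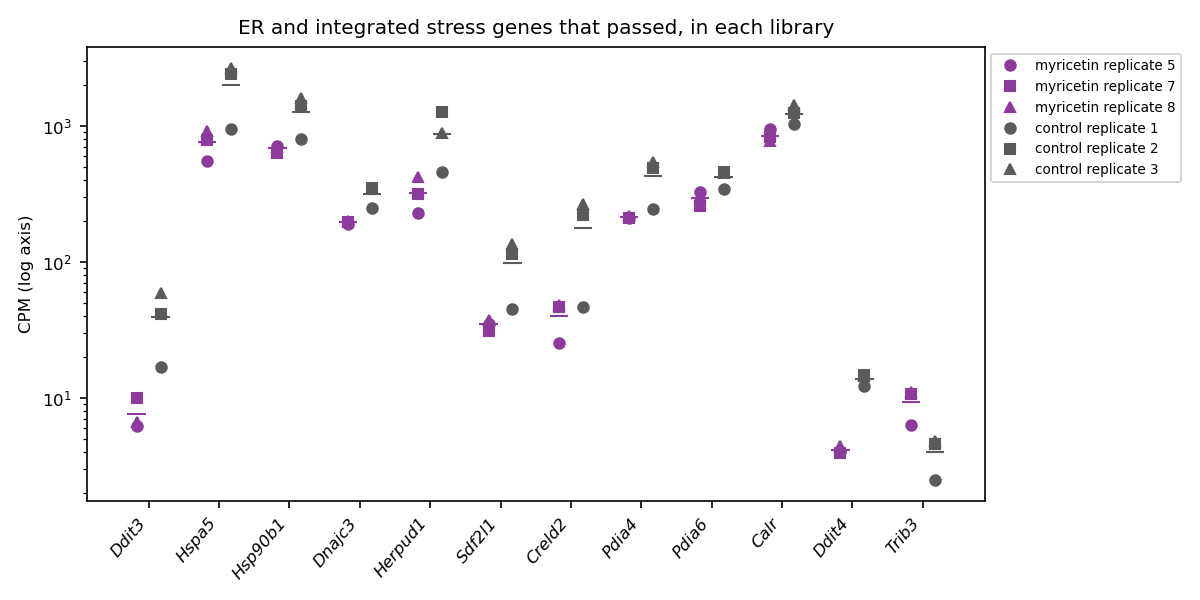
CPM of the 12 genes of ER and integrated stress that passed, in each library on a log axis (purple, myricetin; grey, control; shapes mark replicates; short lines are group means). Control replicate 1 is the lowest control in each of the 11 lower genes, and Trib3 is the gene that lies higher in myricetin livers.

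Heat shock genes were lower in myricetin livers too. Of 19 tested, 11 fell and none rose, beside 4.63% of all genes lower, with a median of -0.93. Here control replicate 1 (-0.21) stood between the myricetin libraries (-0.67, -0.48 and -0.33) and the other controls (0.89 and 0.80) on the mean of the members. The 11 were 15 without control replicate 1, 4 without control replicate 2, control replicate 3 or myricetin replicate 5, 6 without myricetin replicate 7 and 7 without myricetin replicate 8.

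Hspa4l, a nucleotide exchange factor of HSP70, had 15.4, 16.2 and 14.2 CPM in myricetin livers, against 24.8, 44.4 and 38.1 CPM in control livers. Its groups were separate, and the difference was -1.23 ± 0.16 (edgeR adjusted p = 0.000839). Hsp90ab1, the constitutive HSP90, had 739, 744 and 774 CPM in myricetin livers, against 952, 1497 and 1303 CPM in control livers, a difference of -0.73 ± 0.13 (edgeR adjusted p = 0.00406), and Hsp90aa1, its inducible paralog, differed by -1.12 ± 0.23 (edgeR adjusted p = 0.0109). Fkbp4, an HSP90 co-chaperone of steroid receptors, differed by -0.68 ± 0.12 (edgeR adjusted p = 0.00443). These genes passed without each library in turn. Hspa1b, an inducible HSP70, had 12.1, 19.0 and 21.0 CPM in myricetin livers, against 28.1, 245 and 249 CPM in control livers. The value of control replicate 1 was near those of myricetin livers, and the difference of -3.32 ± 0.88 (edgeR adjusted p = 0.0413) reached 0.126 without myricetin replicate 5. Reads of Hspa1b and of its near-identical copy Hspa1a (-3.89 ± 0.99 (edgeR adjusted p = 0.0353)) may be divided between them by the authors' counting. The heat shock element GAANNTTCNNGAA stood in the windows of 0 of 9 lower heat shock genes with a window and in 0.466% of all windows. It stood in 2 of the 15 members of the list with a window, beside 0.423% of the genes tested. These were Hspd1 and Hspe1, which did not pass (edgeR adjusted p = 0.368 and 0.486). Their windows overlap on chromosome 1, at 55087933 to 55088182 and 55087898 to 55088147. The matching letters are the same stretch read on opposite strands, so the 2 members are not separate matches. The sterol element core TCACNCCAC stood in 1 of 12 lower cholesterol synthesis genes with a window (Hmgcs1) and in 1.05% of all windows. Absence of a match says only that the letters are not in that window.

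Macrophage genes were higher. Of 27 Kupffer cell and macrophage markers tested 13 rose and none fell, beside 4.57% of all genes, with a median of 1.07, and leaving out any of the 6 libraries gave 9 to 13. Mrc1, the mannose receptor (GRCm38.p6 chromosome 2, 14229414 to 14332023), had 29.2, 33.4 and 39.0 CPM in myricetin livers, against 15.5, 12.1 and 10.9 CPM in control livers, a difference of 1.40 ± 0.18 (SE, edgeR adjusted p = 0.000636). Cybb, the oxidase subunit of phagocytes, had 9.90, 10.0 and 11.9 CPM in myricetin livers, against 4.56, 4.83 and 3.17 CPM in control livers, a difference of 1.34 ± 0.20 (edgeR adjusted p = 0.00155). The libraries of the groups were separate in both. Folr2, a folate receptor of resident macrophages, differed by 1.53 ± 0.24 (edgeR adjusted p = 0.00204) and Cd68, a lysosomal glycoprotein, by 1.32 ± 0.22 (edgeR adjusted p = 0.00256). Msr1, a scavenger receptor outside the list, had 11.2, 13.0 and 13.8 CPM in myricetin livers, against 5.70, 5.15 and 4.35 CPM in control livers, and rose by 1.32 ± 0.16 (edgeR adjusted p = 0.000512). Clec4f, a lectin restricted to Kupffer cells in mice, had 81.9, 82.0 and 114 CPM in myricetin livers, against 41.3, 58.3 and 32.6 CPM in control livers, a difference of 1.07 ± 0.17 (edgeR adjusted p = 0.00291).

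Endothelial markers were higher too. Of 18 tested 13 rose and none fell, beside 4.57% of all genes higher, with a median of 0.95. The 13 were 4 without control replicate 2, control replicate 3 or myricetin replicate 8, and 8 without myricetin replicate 5. Stab2, a scavenger receptor of sinusoidal endothelium (GRCm38.p6 chromosome 10, 86839094 to 87008038), had 53.4, 51.0 and 58.3 CPM in myricetin livers, against 31.1, 21.3 and 19.9 CPM in control livers, a difference of 1.17 ± 0.16 (edgeR adjusted p = 0.00117). Cdh5, the endothelial cadherin, had 19.5, 18.2 and 22.2 CPM in myricetin livers, against 11.3, 7.73 and 7.70 CPM in control livers, a difference of 1.16 ± 0.20 (edgeR adjusted p = 0.00377). Tek, the angiopoietin receptor, differed by 1.30 ± 0.23 (edgeR adjusted p = 0.00394) and Gpr182 by 0.96 ± 0.18 (edgeR adjusted p = 0.00513). These markers held without each library, and control replicate 1 was the highest control in each of them.

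Markers of other non-parenchymal cells gave few calls, beside 4.57% of all genes higher and 4.63% lower. None of 18 stellate cell and matrix genes, 13 T and NK cell genes or 5 neutrophil genes passed edgeR. Of these lists, the stellate cell list held 1 gene with an unadjusted p under 0.05 and 1 that passed DESeq2, and the others held 0 by either measure. In the B cell list 1 of 7 rose, Cd79b, at 1.43, 1.33 and 1.21 CPM in myricetin livers, against 0.507, 0.129 and 0.248 CPM in control livers. These levels are low, and the edgeR adjusted p of 0.0262 reached 0.118 without control replicate 2. All 7 B cell markers had a positive log2 fold change, with a median of 1.80, beside 6334 of all 12658 genes positive. An unadjusted p under 0.05 was found in 6 of the 7, beside 3345 of all 12658 genes, and DESeq2 called 3 higher. The edgeR count was 0 without control replicate 2 or 3 or myricetin replicate 5 or 7. Of 9 cholangiocyte markers 1 fell, the transcription factor Sox9 (-1.37 ± 0.33), with up to 0.0815 without control replicate 3.

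Hepatocyte markers were lower in part. Of 20 tested 4 fell and none rose, beside 4.63% of all genes lower, with a median of -0.33. A negative log2 fold change was found in 19 of the 20, beside 6323 of all 12658 genes. The number that fell was 2 without control replicate 2, myricetin replicate 5 or myricetin replicate 7. Hnf4a, a transcription factor that maintains hepatocyte identity (GRCm38.p6 chromosome 2, 163506811 to 163572907), had 530.0, 515 and 556 CPM in myricetin livers, against 864, 1154 and 843 CPM in control livers, a difference of -0.84 ± 0.15 (edgeR adjusted p = 0.00377). Foxa3, a factor of the same network, had 31.5, 27.4 and 50.7 CPM in myricetin livers, against 76.6, 81.2 and 68.0 CPM in control livers, a difference of -1.04 ± 0.19 (edgeR adjusted p = 0.00429). Both passed without each library. The markers of macrophages and endothelium moved the other way, as given above. Alb took 4.64 to 5.24% of all counts in myricetin livers and 7.27 to 7.81% in control livers, a difference of -0.70 ± 0.17 (edgeR adjusted p = 0.0177, up to 0.071 without control replicate 2). By zone, 5 of 11 periportal markers fell, beside 4.63% of all genes lower. None of 15 pericentral markers passed edgeR. Of the 15, 2 had an unadjusted p under 0.05, beside 3345 of all 12658 genes, and 1 rose by DESeq2. The 5 periportal markers were 0 without control replicate 2, 1 without myricetin replicate 5 and 2 without myricetin replicate 7.

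Interferon response genes were higher at modest size. Of 31 tested, 11 rose and 1 fell, beside 4.57% of all genes higher and 4.63% lower, with a median of 0.59. A positive log2 fold change was found in 30 of the 31, beside 6334 of all 12658 genes. The 11 were 6 without control replicate 3 or myricetin replicate 5. Dhx58, a helicase of the RNA sensing pathway, had 17.3, 10.98 and 13.5 CPM in myricetin livers, against 8.11, 5.22 and 7.39 CPM in control livers, a difference of 1.01 ± 0.18 (edgeR adjusted p = 0.00429). Isg15, a ubiquitin-like modifier, had 12.1, 9.89 and 12.4 CPM in myricetin livers, against 6.59, 7.92 and 6.65 CPM in control livers, a difference of 0.70 ± 0.14 (edgeR adjusted p = 0.0081). Ddx58, which encodes the RNA sensor RIG-I, differed by 0.68 ± 0.14 (edgeR adjusted p = 0.00809) and Ifi35 by 0.53 ± 0.10 (edgeR adjusted p = 0.00599). Stat2, a subunit of the interferon-activated transcription complex, ran the other way, at 71.2, 67.5 and 56.0 CPM in myricetin livers, against 93.2, 101 and 105 CPM in control livers, a difference of -0.62 ± 0.12 (edgeR adjusted p = 0.00787). The macrophage and endothelial markers given above moved with these genes, and their part in the result was not tested.

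Complement, lysosome and chemokine lists held a few members that passed, some of them macrophage markers, and the part of the macrophage shift was not tested here either. The complement list had 5 members that rose and 4 that fell of 32, beside 4.57% of all genes higher and 4.63% lower, with a median of -0.11. Among the risers were C1qa, C1qb and C1qc, the chains of C1q, which liver macrophages make and which the macrophage list also holds. C1qc had 33.8, 38.3 and 53.1 CPM in myricetin livers, against 20.7, 21.7 and 15.7 CPM in control livers, a difference of 1.11 ± 0.22 (edgeR adjusted p = 0.0094), and passed without each library. The 5 that rose were 3 without control replicate 2 or myricetin replicate 7 and 1 without control replicate 3 or myricetin replicate 8, and the 4 that fell were 0 without control replicate 1, control replicate 2 or myricetin replicate 7, 2 without myricetin replicate 5 and 1 without myricetin replicate 8. In the lysosome list 2 of 27 rose and 1 fell, beside the same shares of all genes, with a median of 0.0054. Ctss, a cathepsin that the macrophage list also holds, rose by 0.97 ± 0.18 (edgeR adjusted p = 0.00443) and Lgmn, an asparaginyl protease, by 0.69 ± 0.14 (edgeR adjusted p = 0.0081). In the lower direction Gusb, a lysosomal glucuronidase, differed by -0.46 ± 0.14 and reached an edgeR adjusted p of 0.215 without control replicate 2. Of 24 chemokines and receptors 2 rose and none fell, beside 4.57% of all genes higher. Ccl6, a myeloid chemokine, had 6.75, 5.61 and 8.50 CPM in myricetin livers, against 2.41, 3.29 and 2.11 CPM in control livers, a difference of 1.42 ± 0.30 (edgeR adjusted p = 0.00925). The acute phase list had 1 of 29 members that fell, Serpina3m (-0.75 ± 0.20), which reached 0.0993 without control replicate 2, and Saa1, the main acute phase apolipoprotein, differed by 0.02 ± 0.82 (edgeR adjusted p = 0.993).

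Drug metabolism changed in few genes, beside 4.57% of all genes higher and 4.63% lower. Of 22 genes of glucuronidation and sulfation 3 fell and none rose, and leaving out any library gave 3 or 4 that fell. Members that rose numbered 2 without control replicate 1, 3 with the 6 libraries alone and 3 with DESeq2. Ugt1a9, a glucuronosyltransferase, had 22.7, 17.4 and 17.9 CPM in myricetin livers, against 60.9, 140.1 and 94.5 CPM in control livers, a difference of -2.35 ± 0.37 (edgeR adjusted p = 0.00429). Sult1a1, a phenol sulfotransferase, had 83.8, 84.7 and 144 CPM in myricetin livers, against 265, 245 and 188 CPM in control livers, a difference of -1.16 ± 0.23 (edgeR adjusted p = 0.0081), and Ugt1a5 differed by -2.08 ± 0.39 (edgeR adjusted p = 0.00957). Ugt1a genes share exons, so reads may be divided between them. None of 25 Cyp2 and Cyp3a genes passed edgeR. An unadjusted p under 0.05 was found in 5, beside 3345 of all 12658 genes, and DESeq2 called 1 higher and 1 lower. Among the 25 were Cyp3a11 at -0.15 ± 0.19 (edgeR adjusted p = 0.644) and Cyp2e1 at 0.30 ± 0.16 (edgeR adjusted p = 0.248). Cyp1a1, the best known target of the aryl hydrocarbon receptor, which binds many planar plant compounds, had 1.20, 1.33 and 1.09 CPM in myricetin livers, against 1.14, 1.16 and 0.994 CPM in control livers. The groups overlapped, and the difference of 0.13 ± 0.30 (edgeR adjusted p = 0.817) did not pass. Among 31 NRF2 and glutathione genes 1 rose, the glutathione transferase Gstm4, by 0.92 ± 0.19 (edgeR adjusted p = 0.00957), and 2 fell, while Nqo1, a standard NRF2 target, differed by 0.21 ± 0.24 (edgeR adjusted p = 0.615).

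Model livers had no flavonoid and are not part of the contrast above, but they give the test of whether a named gene also differed from the untreated high-fat group. Both comparisons use the same myricetin libraries. Between myricetin and model livers 50 of 12658 genes passed (0.395%), 23 higher (0.182%) and 27 lower (0.213%). The number was 18, 13 and 14 without model replicates 1, 2 and 5, 15 without myricetin replicate 7 or 8 and 65 without myricetin replicate 5. Nr1d1 had 73.3, 134 and 84.1 CPM in myricetin livers, against 4.16, 6.63 and 7.05 CPM in model livers, and differed by 4.03 ± 0.40 (edgeR adjusted p = 0.00173). Sqle, in contrast, had 2.80, 2.29 and 0.689 CPM in myricetin livers, against 1.96, 8.20 and 0.922 CPM in model livers, and the difference of -0.96 ± 0.81 (edgeR adjusted p = 0.705) did not pass. Abcg8 had 178, 209.9 and 182 CPM in myricetin livers, against 113, 60.3 and 136 CPM in model livers, with a difference of 0.88 ± 0.29 (edgeR adjusted p = 0.245), and Srebf1 differed by -0.23 ± 0.17 (edgeR adjusted p = 0.631). Mrc1 differed by 0.42 ± 0.17 (edgeR adjusted p = 0.324), Stab2 by 0.32 ± 0.16 (edgeR adjusted p = 0.45), Ddit3 by -0.06 ± 0.38 (edgeR adjusted p = 0.966) and Zbtb16 by -0.13 ± 0.29 (edgeR adjusted p = 0.905). A p that misses the threshold does not show that myricetin and model livers were alike.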

How the data were processed

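Mouse liver RNA was sequenced from total RNA. The submitters' processing notes name GRCm38.p6 as build and, as tools, RSEM 1.3.1, DESeq2 1.4.5, Bowtie2 2.3.4.3 and HISAT2 2.1.0, without saying what each did. The deposited table of 16809 genes gives expected counts by gene for each library, called read counts per the file headers, not scaled between libraries and not whole in 5.37% of values. It also holds TPM of the authors, per the file headers, used only to compare levels between genes. The 15 FPKM, 15 average and 12 comparison columns were not used. The use of strand is not given in the sources used here, and 10 of the 143 genes that the naming rule takes overlap a tested gene on the other strand. Reads shared by near-identical or overlapping genes (Hspa1a and Hspa1b, the Ugt1a genes) may have been divided between them. Gene positions are those of the table; chromosomes and promoter windows come from RefSeq (GRCm38.p6), where 16760 identifiers were found.

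Expected counts were rounded, filtered with filterByExpr (12658 genes left), scaled by TMM and fitted by the robust quasi-likelihood method of edgeR 4.0.16 (R 4.3.3) over all 15 libraries with a mean for each of the 5 groups and 10 residual degrees of freedom. Tests were 2-sided. The standard error is the absolute log2 fold change over the square root of F, so it and its 95% interval are approximate; the median standard error was 0.16 and the common biological coefficient of variation 0.155. CPM use TMM-scaled totals. The fit was tested on simulated counts before use. The members and the 48 gene lists were chosen with earlier results of these data known, and lists are described by counts and medians, without a set test. A list score is the mean of log2(CPM + 0.5), centred per gene.

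Named genes are 16 fixed genes; the 8 highest and 8 lowest fold changes among passing genes with separate CPM ranges and a mean of at least 5 CPM; up to 4 passing members per list and direction; and the 6 smallest p-values per direction. Other list members are given to fill out a list and were chosen after their values were seen. Some genes that the rule takes are not reported here. The alternatives were DESeq2 1.42.0, its size factors, limma-trend (limma 3.58.1), a non-robust fit, no filter, the 6 libraries alone and leaving out each library.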

Additional observations from a re-analysis of the deposited data

Results flagged for a closer look

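Of the genes reported here, 8 differed from control in myricetin livers and also passed the direct test of myricetin against model livers. Their difference from control was thus not the same in the myricetin and model groups. Both tests use the same myricetin libraries, and the naming rule took genes partly for their difference from control in those libraries. Over all genes, 50 of 12658 (0.395%) passed the test against model livers.

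There were 4 clock genes among them. The log2 fold change of myricetin over model was 4.03 ± 0.40 (edgeR adjusted p = 0.00173) for Nr1d1, 2.65 ± 0.45 (edgeR adjusted p = 0.0356) for Dbp and 1.99 ± 0.29 (edgeR adjusted p = 0.0125) for Nr1d2, which were higher in myricetin livers. Cry1 differed by -1.80 ± 0.22 (edgeR adjusted p = 0.00174) and was lower in myricetin livers, with 17.8, 13.4 and 10.2 CPM in myricetin livers, against 52.0, 44.5 and 48.0 CPM in model livers. Libraries of myricetin and model livers did not overlap in these 4 genes. The genes were taken here for passing the test on the same libraries, so the separation is no further support. The share of all genes with separate myricetin and model libraries was not counted. The shifts were not particular to myricetin. Quercetin livers, from another treated high-fat group, differed from control by 5.27 (Nr1d1), 5.88 (Dbp), 2.92 (Nr1d2) and -2.79 (Cry1), and all 4 passed edgeR. In kaempferol livers Nr1d1 (2.63), Nr1d2 (1.02) and Cry1 (-0.85) passed in the same direction, and Dbp (-0.61) did not pass.

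Trib3, the pseudokinase of the integrated stress response, had 6.35, 10.7 and 11.1 CPM in myricetin livers, against 2.27, 2.27 and 1.65 CPM in model livers, a difference of 2.18 ± 0.30 (edgeR adjusted p = 0.00363). Akr1d1, a steroid reductase of bile acid synthesis, had 93.1, 84.3 and 97.9 CPM in myricetin livers, against 168, 155 and 123 CPM in model livers, a difference of -0.70 ± 0.15 (edgeR adjusted p = 0.0487). Fbxo21, a ubiquitin ligase subunit, had 141, 169.6 and 158 CPM in myricetin livers, against 90.3, 61.9 and 73.9 CPM in model livers, a difference of 1.05 ± 0.14 (edgeR adjusted p = 0.00174). Parp16, an ADP-ribosyltransferase of the endoplasmic reticulum, had 23.1, 22.8 and 20.2 CPM in myricetin livers, against 46.1, 30.3 and 43.6 CPM in model livers, a difference of -0.86 ± 0.15 (edgeR adjusted p = 0.022). Against control, Fbxo21 also passed in quercetin (0.84) and kaempferol livers (0.85), as did Parp16 (-1.17 and -0.76). Trib3 passed in quercetin (1.18) but not kaempferol livers, and Akr1d1 in kaempferol (-0.50) but not quercetin livers.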

How the results depend on the processing

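Of 143 genes taken by the naming rule 135 passed and 75 of these passed whichever of the 6 libraries was left out. Leaving out 1 library gave 470 to 1354 passing genes against control, 226 to 658 higher and 244 to 696 lower, and 13 to 65 against the model, 4 to 32 higher and 8 to 33 lower. The 6 libraries of a comparison alone gave 387 lower genes against control and, against the model, 125 genes, 49 higher and 76 lower. Calls in common with the 1164 were 1151 of 1538 with DESeq2 and 451 of 470 without control replicate 2. Of the 1164, 710 were also called with the 6 libraries alone and 982 without the filter. Among the 143 genes of the naming rule alone, calls lost numbered 31 with the 6 libraries alone, 15 without the filter, 5 with limma-trend, 3 with DESeq2 size factors, 1 without the robust option and 22 to 47 without 1 library. With the 6 libraries alone, lower members numbered 11 in place of 17 for cholesterol synthesis, 7 in place of 12 for fatty acid synthesis, 4 in place of 11 for both ER stress and heat shock, and 2 in place of 5 for iron and heme, and higher members of the complement list 3 in place of 5. Without the filter, lower members numbered 7 for fatty acid synthesis, 7 for heat shock, 3 for the urea cycle list and 2 for iron and heme. DESeq2 called 10 lower complement members in place of 4, 7 lower hepatocyte markers in place of 4 and 6 lower immediate early genes in place of 3, and limma-trend 3 lower periportal markers in place of 5. The median of all genes lay between -0.00426 and 0.00585 in all settings. For 2 genes that did not pass, the sign turned. Cyp7a1 had -0.20 without control replicate 2, -0.22 without control replicate 3 and -0.27 without myricetin replicate 8, and 1.47 without control replicate 1. Scd1 had 0.029 without control replicate 1 and -0.61 without control replicate 2. The cause was not tested. The 95% interval of a log2 fold change reached 0.34 either way in the median gene, so smaller differences were mostly not detectable at this depth and n. No paired analysis was possible because the groups compared share fewer than 2 replicate numbers.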

Other observations

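Several genes outside the pathways above stood among those with the largest or best supported differences. Adam11, a catalytically inactive member of the ADAM family (GRCm38.p6 chromosome 11, 102761413 to 102780263), had 72.3, 80.7 and 52.2 CPM in myricetin livers, against 11.5, 10.9 and 7.64 CPM in control livers, a difference of 2.77 ± 0.41 (SE, edgeR adjusted p = 0.00346). Fbxo21 had 141, 169.6 and 158 CPM in myricetin livers, against 66.0, 69.8 and 65.3 CPM in control livers, a difference of 1.22 ± 0.14 (edgeR adjusted p = 0.000415). Slc2a9, the urate transporter, had 39.5, 34.4 and 37.8 CPM in myricetin livers, against 22.2, 19.0 and 19.6 CPM in control livers, and rose by 0.88 ± 0.11 (edgeR adjusted p = 0.000636). The lower genes included Mroh6 (-2.69 ± 0.38 (edgeR adjusted p = 0.00177)), Proser2 (-1.16 ± 0.14 (edgeR adjusted p = 0.000512)) and Parp16 (-1.19 ± 0.16 (edgeR adjusted p = 0.000778)). Each of these 6 genes passed whichever of the 6 libraries was left out, and their groups did not overlap. Separate groups were a condition for taking Adam11 and Mroh6, and the others were taken for their small p-values. Of all genes, 29.7% had separate groups. Igfbp1, a binding protein of insulin-like growth factors that insulin represses, had 29.8, 61.7 and 28.2 CPM in myricetin livers, against 5.58, 9.34 and 4.04 CPM in control livers. Its difference of 2.66 ± 0.58 (edgeR adjusted p = 0.0185) reached 0.0774 without control replicate 3. With Trib3 it was 1 of 2 members that rose among 23 genes of glucose metabolism and insulin response, beside 4.57% of all genes higher. The gluconeogenic genes G6pc (0.59 ± 0.28 (edgeR adjusted p = 0.21)) and Pck1 (0.23 ± 0.43 (edgeR adjusted p = 0.77)) did not pass.

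Lists with few or no calls, or with counts that turned on single libraries, cover much of the other work of the liver. Their counts stand beside 4.57% of all genes higher and 4.63% lower. Of 31 genes of the urea cycle and amino acid catabolism 5 fell and none rose, a number that was 0 without control replicate 2, 2 without control replicate 1, and 1 without myricetin replicate 5 or 7. Asl, argininosuccinate lyase, had 333, 355 and 421 CPM in myricetin livers, against 691, 739.5 and 454 CPM in control livers, a difference of -0.76 ± 0.16 (edgeR adjusted p = 0.0103) that reached 0.0594 without control replicate 2. Of 20 iron and heme genes 5 fell, which was 1 without control replicate 1, 2 or 3 or myricetin replicate 5 or 7, and 3 without myricetin replicate 8. Ppp1r3b, a glycogen-targeting subunit, had 207, 200.2 and 353 CPM in myricetin livers, against 755, 699.7 and 683 CPM in control livers, and differed by -1.49 ± 0.31 (edgeR adjusted p = 0.0137) among 14 glycogen genes, of which 1 rose and 1 fell. Its adjusted p in edgeR reached 0.0557 without myricetin replicate 5, where none of the 14 passed. Of 25 cell cycle genes 2 fell and none rose (2 rose without control replicate 1). The lower were Cdkn1a and Rrm2, a subunit of ribonucleotide reductase, at 3.03, 2.89 and 3.33 CPM in myricetin livers, against 7.16, 9.15 and 8.76 CPM in control livers, a difference of -1.43 ± 0.30 (edgeR adjusted p = 0.00968). In the immediate early list 3 of 22 fell, among them Rhob (-0.72 ± 0.16 (edgeR adjusted p = 0.011)), and the number was 6 without control replicate 1 and 1 without control replicate 3 or myricetin replicate 5 or 7. Of 33 ribosomal protein genes 1 fell, Rpl14 (-0.33 ± 0.10), which reached an edgeR adjusted p of 0.181 without myricetin replicate 5. In this list 32 of 33 log2 fold changes were negative, with a median of -0.25, and 18 had an unadjusted p under 0.05. Over all 12658 genes tested, 6323 were negative and 3345 had an unadjusted p under 0.05. The number that fell was 10 without myricetin replicate 8 and 0 without control replicate 2 or 3 or myricetin replicate 5 or 7. None of 33 respiratory chain genes or 12 genes of the growth hormone axis passed edgeR, and 0 of either list had an unadjusted p under 0.05 or passed DESeq2. The male-biased list had 1 of 20 members that rose, Hsd3b5 (1.21 ± 0.29 (edgeR adjusted p = 0.0238)), which reached 0.0897 without control replicate 3.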
